A study of Mus musculus with 8 samples.

Results

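The nuclear genes that encode subunits of the mitochondrial respiratory chain and of ATP synthase were measured in 8 pancreatic tumors. Members were the protein-coding genes whose symbols name a numbered Nduf, Sdh, Uqcr, Cox or Atp5 subunit, and 80 of the 29968 genes counted met this rule. By symbol, 35 belonged to complex I, 4 to complex II, 8 to complex III, 16 to complex IV (Ndufa4 and Ndufa4l2 included) and 17 to complex V. All 80 passed the filter on low counts in both comparisons made below, so no member was left untested.

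The tumors were grown from KPC FC1245 cells, a single mouse pancreatic cancer line taken from the tumor of a genetically engineered mouse. At 12 weeks of age, male C57BL/6J mice (WT, 4 tumors) and complement C3-null mice (C3-/-, 4 tumors) received 250000 cells in 50 µl of PBS in the tail of the pancreas, and the endpoint was day 14. The described difference between the hosts is C3. The implanted cells carried the C3 gene in both groups, and C3 was still counted in every C3-/- tumor (100.3 to 133.7 CPM against 209.6 to 425.9 CPM in WT tumors). Each tumor is 1 poly-A selected library with a total of 13266029 to 23354212 counts. CPM here is the usual rate of counts by library size, with library sizes adjusted by the TMM method.

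The respiratory chain passes electrons from NADH through complex I, or from succinate through complex II, to complex III, and by cytochrome c to complex IV (cytochrome c oxidase), which reduces oxygen. Complexes I, III and IV pump protons, and complex V (ATP synthase) uses the gradient to make ATP. Complexes I, III, IV and V join subunits encoded in the nucleus to others encoded in mitochondrial DNA, whereas complex II is encoded in the nucleus throughout. Several complex IV subunits come in a form made in most tissues and a form made mainly in heart and skeletal muscle, or in testis.

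Most members were abundant in every tumor. Per length (CPM per kb of the canonical transcript, averaged over 8 tumors), the highest member was Atp5b, the catalytic beta subunit of ATP synthase, at 508 CPM per kb. Cox6a1, the widely expressed form of a complex IV subunit, led complex IV at 282.1 CPM per kb. Ndufa6, an accessory subunit of complex I, led its complex at 141 CPM per kb. Sdhd, a membrane anchor of complex II, led at 108.9 CPM per kb, and Uqcr10, a small subunit of complex III, at 88.7 CPM per kb. The 4 lowest members were Cox7a1 at 2.77, Cox6b2 at 2.74, Ndufb2 at 1.7 and Cox8b at 1.07 CPM per kb. Of these, Ndufb2 is an accessory subunit of complex I, named after its value was seen, and the other 3 are forms known from muscle or testis. Markers of the tumor epithelium (6 genes, among them Krt8, Krt19 and Epcam) summed to 4564 to 9059 CPM per tumor.

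The question of which members moved with muscle RNA was addressed by the count of Acta1, the skeletal muscle actin gene, which was 1000 or more in 5 tumors (WT replicates 1 and 4, C3-/- replicates 1, 3 and 4) and below 1000 in 3 (WT replicates 2 and 3, C3-/- replicate 2). The Acta1 count was 12294, 7, 1 and 30612 in the 4 WT tumors (in the order of their numbers) and 22649, 7, 10093 and 27427 in the 4 C3-/- tumors. This split comes from the measured counts and is no treatment, and Acta1 itself is no finding in it. Cox6a2 and Cox8b, both muscle forms of complex IV subunits, were far higher in the 5 tumors with high Acta1, and the other 78 members did not pass the test.

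Cox6a2 (chromosome 7 of mm39, 127804607 to 127805559, minus strand) encodes the heart and skeletal muscle form of subunit VIa, and its model overlaps that of Itgad. Its counts, in the order of the replicate numbers, were 156, 1, 0 and 594 in WT tumors and 186, 1, 134 and 330 in C3-/- tumors. As levels these were 9.70, 0.0754, 0 and 25.3 CPM in WT tumors and 8.70, 0.056, 8.45 and 18.0 CPM in C3-/- tumors. Every tumor with high Acta1 lay above every tumor with low Acta1, and both genotypes held tumors of each kind. Summed over tumors, 1400 counts stood against 2, a ratio per library size of 326.8 (95% exact counting interval 90.3 to 2701). In edgeR's quasi-likelihood test, the fitted log2 difference was 8.07 (SE 0.72, Benjamini-Hochberg adjusted p 0.000101), a value that depends on the prior count and is no bound. Cox6a2 passed the filter on low counts through the tumors where it was high alone, and with no filter beyond 1 count its adjusted p was 5.1e-08.

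Cox8b (chromosome 7, 140478858 to 140480359, minus strand) encodes the muscle and brown fat form of subunit VIII. Its counts were 32, 1, 0 and 156 in WT replicates 1 to 4, and 46, 0, 48 and 83 in C3-/- replicates 1 to 4. As for Cox6a2, the highest level was in WT replicate 4 (6.64 CPM) and the next in C3-/- replicate 4 (4.54 CPM). The other tumors with high Acta1 came in the reverse order, with 3.03 CPM in C3-/- replicate 3, 2.15 CPM in C3-/- replicate 1 and 1.99 CPM in WT replicate 1. The sums were 365 counts against 1, a ratio of 170.4 (95% exact counting interval 30.4 to 6749). The fitted log2 difference was 6.95 (SE 0.86, adjusted p 0.00103 in edgeR), likewise no bound. Cox8b also passed the filter through the tumors with high Acta1 alone, and without that filter its adjusted p was 1.44e-05 in edgeR. These intervals cover counting error only, since reads without molecular identifiers are not independent molecules.

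The calls of both genes held in all 15 alternative fits that gave a log2 difference, with adjusted p from 1.05e-11 to 0.00154 for Cox6a2 and from 1.71e-06 to 0.0099 for Cox8b. These fits share the Acta1 split and most share the filter on low counts, so the agreement between them is no independent evidence. Of all 17142 genes tested between the Acta1 classes, 206 were called (1.2%), and of the members 2 of 80 were (2.5%). A list of 18 skeletal muscle genes, which holds Acta1 itself, moved with them. Besides Acta1, whose count sets the split, 16 of its genes passed the filter and 16 were called higher. That list had been seen to vary in these tumors before and its genes could pass the filter through the high class alone, so the count is no independent evidence. Without Acta1 it summed to 1299 to 4533 CPM in tumors with high Acta1 and to 32.8 to 50.5 CPM in the others, and Tnnc2, a troponin gene, was its only gene with 3 counts or fewer in every tumor. The share of muscle RNA was not held fixed, and in bulk tissue fewer cells of a type and less RNA per cell cannot be told apart.

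Cox7a1 (chromosome 7, 29883569 to 29885503, plus strand), the heart and muscle form of subunit VIIa, gave a much smaller contrast. It had 1.18, 1.05, 0.678 and 1.96 CPM in WT replicates 1 to 4 and 1.31, 0.784, 1.32 and 1.48 CPM in C3-/- replicates 1 to 4. All 5 tumors with high Acta1 lay above the other 3, but the margin was narrow (1.18 against 1.05 CPM) and rested on 9 to 46 counts per tumor. The log2 difference was 0.79 (SE 0.38, p 0.0604, adjusted p 1 in edgeR). Together with Cox6a2 and Cox8b it made 3 of 80 members (3.75%) whose classes did not overlap with the high class above, where 2.55% of all genes tested did so, and 0 members showed the reverse (0.957% of all genes).

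Unlike Cox6a2 and Cox8b, Cox7a1 kept a level of 0.678 to 1.05 CPM in the 3 tumors where Acta1 had 1 to 7 counts. Per 1000 counts of Acta1, the tumors with high Acta1 held 8.21 to 19.4 counts of Cox6a2, 2.03 to 5.10 of Cox8b and 0.984 to 2.08 of Cox7a1. Across the 8 tumors, as a description, the Spearman rho with Acta1 was 0.95 for Cox6a2, 0.90 for Cox8b and 0.90 for Cox7a1, and -0.10, -0.14 and 0.12 for their widely expressed partners Cox6a1, Cox8a and Cox7a2. The points share library and depth, and the members had been proposed with Acta1 in view.

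The partners were abundant in every tumor. Cox6a1 lay between 102 and 270.6 CPM, and its log2 difference between the Acta1 classes was 0.09 (SE 0.28). Cox8a lay between 99.8 and 182.5 CPM, with a difference of -0.02 (SE 0.20), and Cox7a2 between 39.4 and 95.4 CPM, with a difference of -0.13 (SE 0.28). The muscle form thus took a minor share of each pair. Cox6a2 made up 15.1% of the counts of Cox6a1 and Cox6a2 together in WT replicate 4 (95% Wilson interval 14 to 16.2) and 12.8% in C3-/- replicate 4 (11.5 to 14.1), against 3.12 to 6.03% in the other 3 tumors with high Acta1. In the tumors with low Acta1 it was 0 to 0.0549%, and the upper Wilson bounds lay at 0.138 to 0.31%. Cox8b made up 1.17 to 5.46% of the pair with Cox8a in tumors with high Acta1 and 0 to 0.0576% in the others. The share of Cox7a1 in the pair with Cox7a2 overlapped between the classes, at 1.72 to 3.51% with high and 0.706 to 2.42% with low Acta1. Reads can be split between such related genes, which was not examined.

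**Figure D1:**
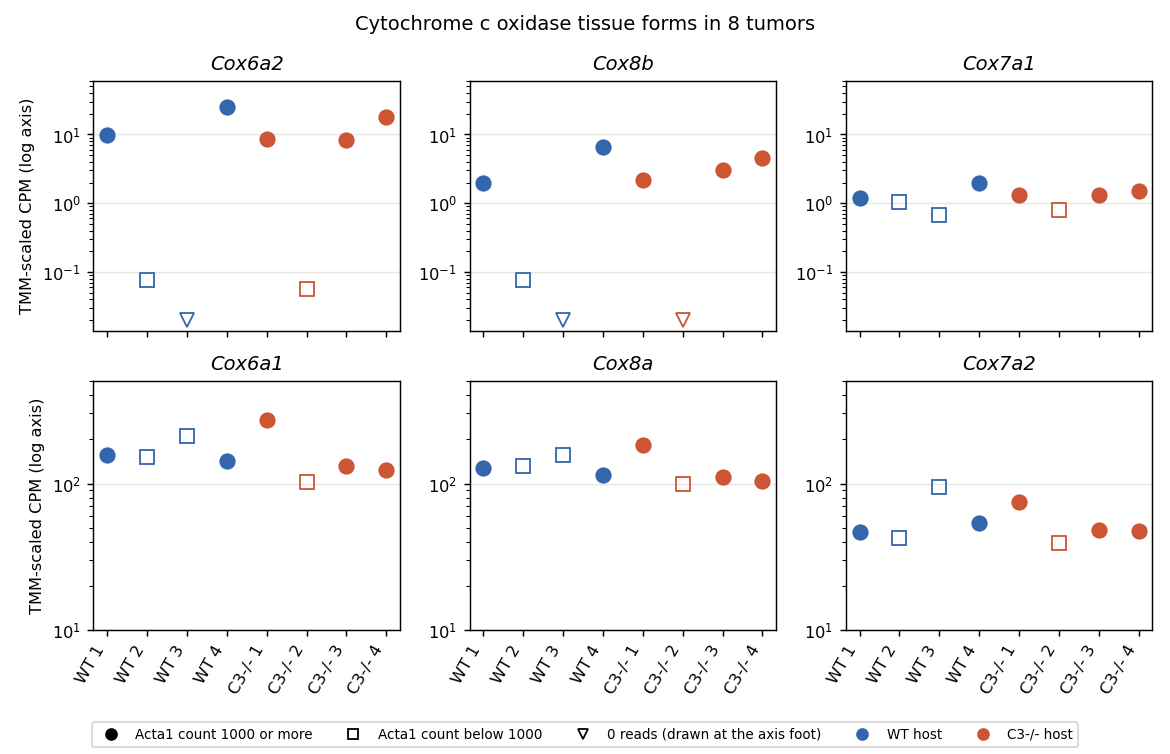
Level of 3 muscle forms of complex IV subunits (top row) and of their widely expressed partners (bottom row) in each of the 8 tumors, in TMM-scaled CPM on log axes. Circles are tumors with 1000 or more Acta1 counts, squares tumors with fewer, triangles mark 0 reads, and colors mark the host genotype. Cox6a2 and Cox8b sit at 1.99 CPM or more in the 5 tumors with high Acta1 and at 0.0754 CPM or less in the other 3, in hosts of both genotypes, while the partners stay between 39.4 and 270.6 CPM.

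Because Cox6a2 and Cox8b differed so much from their partners, the 250 bases upstream of the start of each canonical transcript (GENCODE vM39, GRCm39) are shown for both pairs, 5′ to 3′ on the gene's own strand. The windows are chr7:127805560-127805809 (minus strand) for Cox6a2, chr7:140480360-140480609 (minus) for Cox8b, chr5:115487041-115487290 (minus) for Cox6a1 and chr19:7194965-7195214 (minus) for Cox8a. Capitals mark the E-box CAGCTG, bound by myogenic factors of the MyoD family, a match to the consensus of the muscle factor MEF2, and CCGGAA, the core recognized by the respiratory gene factor GABP (NRF-2), each searched on both strands.
Cox6a2: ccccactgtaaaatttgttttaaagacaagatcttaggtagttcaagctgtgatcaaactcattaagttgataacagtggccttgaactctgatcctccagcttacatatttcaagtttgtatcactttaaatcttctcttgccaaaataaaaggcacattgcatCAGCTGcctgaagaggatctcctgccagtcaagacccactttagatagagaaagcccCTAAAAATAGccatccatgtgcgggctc
Cox8b: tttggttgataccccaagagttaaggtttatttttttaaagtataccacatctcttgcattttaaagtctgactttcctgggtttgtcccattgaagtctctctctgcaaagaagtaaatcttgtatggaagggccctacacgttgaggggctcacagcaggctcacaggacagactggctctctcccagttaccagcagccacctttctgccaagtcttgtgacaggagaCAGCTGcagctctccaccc
Cox6a1: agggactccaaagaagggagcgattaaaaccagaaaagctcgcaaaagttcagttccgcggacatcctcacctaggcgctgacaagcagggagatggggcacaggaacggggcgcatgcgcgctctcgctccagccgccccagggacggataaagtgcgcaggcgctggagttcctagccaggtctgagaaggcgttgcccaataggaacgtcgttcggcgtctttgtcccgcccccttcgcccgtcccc
Cox8a: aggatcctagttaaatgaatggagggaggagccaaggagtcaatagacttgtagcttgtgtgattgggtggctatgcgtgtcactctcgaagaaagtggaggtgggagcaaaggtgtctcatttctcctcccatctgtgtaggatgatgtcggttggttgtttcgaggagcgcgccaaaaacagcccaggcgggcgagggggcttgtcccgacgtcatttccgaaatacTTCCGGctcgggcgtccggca

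Cox6a2 held the CAGCTG E-box at -85 to -80 and the MEF2 match at -28 to -19 from the start, and Cox8b held CAGCTG at -19 to -14. Cox8a held CCGGAA on its other strand at -21 to -16, and Cox6a1 held none of these letters. The upstream window of Cox7a1 held neither CAGCTG nor a MEF2 match. These matches are descriptions of letters and not of binding. CAGCTG occurred in 11.9% of the same windows of 17380 protein-coding genes and in 11.2% of those of the 80 members. A MEF2 match occurred in 2.17% and 1.25%, that is in 1 member, and CCGGAA in 14.6% and 18.8%.

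Other tissue forms and paralogs did not follow Acta1. Cox6b2, known as the testis form of subunit VIb, had 0.746 to 2.76 CPM (12 to 59 counts) and a log2 difference of 0.11 (SE 0.46) between the Acta1 classes, and its partner Cox6b1 had 68.5 to 155 CPM and a difference of -0.04 (SE 0.26). Ndufa4l2, a paralog of Ndufa4 induced by hypoxia, was the lowest member of this comparison, with a log2 difference of -0.64 (SE 0.33, p 0.0788, adjusted p 1 in edgeR). It had 9.33, 20.7, 19.4 and 9.40 CPM in WT replicates 1 to 4 and 18.6, 9.52, 7 and 8.91 CPM in C3-/- replicates 1 to 4, so that WT replicates 2 and 3 and C3-/- replicate 1 were high and the other 5 tumors low. Its model overlaps that of Shmt2. Ndufa4 itself, a complex IV subunit, had 74.3 to 155.9 CPM and a difference of 0.09 (SE 0.24).

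For the 80 members as a whole, the median log2 difference between high and low Acta1 was -0.01, the same as for all genes tested (-0.01), with 38 members above 0 and 42 below. It was 0.27 without WT replicate 3, where 76 members lay above 0, and -0.17 without C3-/- replicate 1, where 75 lay below 0. In complex I, Ndufa12, an accessory subunit, had the highest difference (0.48, SE 0.44) and Ndufv3, another, the lowest (-0.33, SE 0.26). In complex II, Sdha, the flavoprotein, was highest (0.02, SE 0.13) and Sdhd lowest (-0.12, SE 0.15), and in complex III, Uqcr11 was highest (0.20, SE 0.30) and Uqcrh, the hinge protein, lowest (-0.09, SE 0.24). In complex V, Atp5k, a small membrane subunit, was highest (0.25, SE 0.34) and Atp5o, the oligomycin sensitivity subunit, lowest (-0.17, SE 0.28). All of these had an adjusted p of 1 in edgeR.

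Apart from the tissue forms, most members varied together from tumor to tumor. Each member's level was expressed as log2(CPM + 0.5) minus its mean over the 8 tumors. The median of this deviation over the 80 members was -0.08, -0.12, 0.47 and -0.02 in WT replicates 1 to 4, and 0.49, -0.35, -0.21 and -0.19 in C3-/- replicates 1 to 4. WT replicate 3 and C3-/- replicate 1, a tumor of each genotype, thus stood above the other 6, and C3-/- replicate 2 was lowest. Over all 16610 genes tested the same median lay between -0.01 and 0.01 in every tumor.

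For 69 of the 80 members (86.2%), WT replicate 3 and C3-/- replicate 1 were the 2 highest tumors, which held for 17.8% of all genes tested. C3-/- replicate 2 was the lowest tumor for 49 members (61.2%), against 15.6% of all genes. These tumors were picked out because members were high or low in them, so the counts are descriptions. The 11 exceptions were Cox6a2, Cox8b, Cox7a1, Cox6b2 and Ndufa4l2, together with Ndufb1, Ndufb2, Ndufb4, Ndufs1, Sdha and Uqcrc2.

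Cox6a2, Cox8b, Cox7a1, Cox6b2 and Ndufa4l2 were set aside here. Among the other 75 members, the Pearson correlation of a member's deviations with the median of the others over the 8 tumors had a median of 0.94. Of them, 56 members (74.7%) exceeded 0.9, as did 5.16% of the other genes tested. The lowest of the 75 was Ndufs1, the largest iron-sulfur subunit of complex I, at 0.20. The tissue forms Cox7a1, Cox8b and Cox6a2 lay at -0.17, -0.10 and -0.06. Cox6b2 and Ndufa4l2, also set aside, lay at 0.41 and 0.70, above Ndufs1. The points share library, depth and base composition, and no p is given.

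The size of this variation differed between members. Between the highest and the lowest tumor, the 75 members differed by 1.24-fold (Sdhc, a membrane anchor of complex II) to 4.21-fold (Ndufa12), with a median of 1.98-fold. Atp5b had 1040, 978.3, 1199 and 924.6 CPM in WT replicates 1 to 4 and 1215, 747.4, 863.2 and 859.8 CPM in C3-/- replicates 1 to 4. Uqcr11 had 47.6, 47.4, 55.9 and 44.7 CPM in WT tumors and 91.5, 30.9, 36.9 and 35.7 CPM in C3-/- tumors, so that C3-/- replicate 1 alone was far from the rest. Sdha had 227.9, 220.9, 209.5 and 199.7 CPM in WT tumors and 230.5, 186.2, 189.9 and 196.4 CPM in C3-/- tumors, a spread of 1.24-fold. Complex II, with medians of 0.29 and 0.16 in WT replicate 3 and C3-/- replicate 1, deviated less there than complexes I, III, IV and V (0.45 to 0.50 and 0.49 to 0.54), although with 4 genes.

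**Figure D2:**
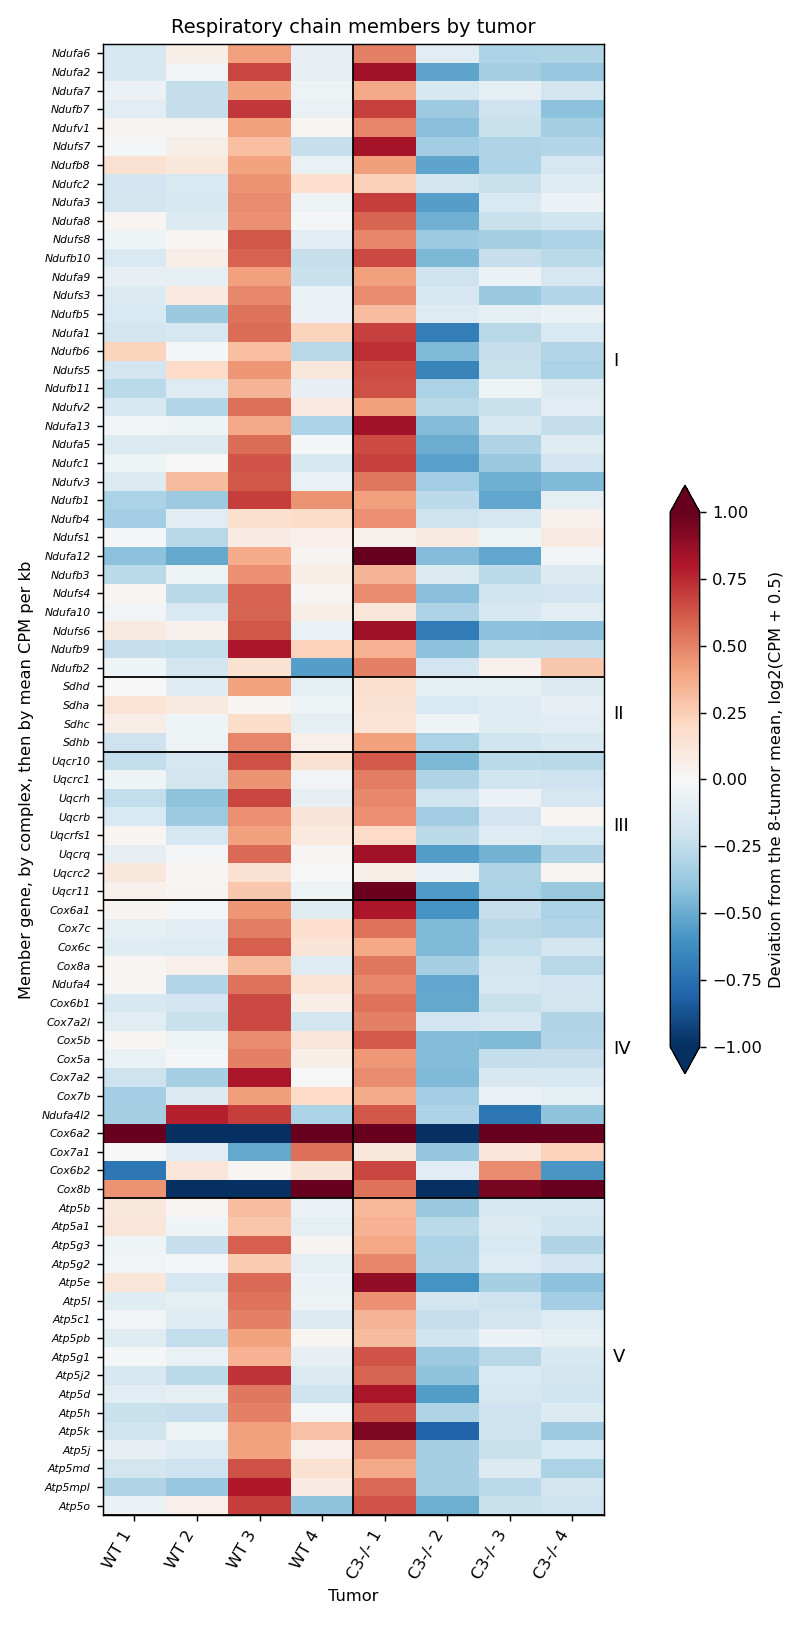
Deviation of 79 of the 80 members from their 8-tumor means on the log2(CPM + 0.5) scale, with tumors in columns (4 WT, then 4 C3-/-) and members in rows, grouped by complex and ordered within it by mean CPM per kb; the color scale stops at -1 and 1. WT replicate 3 and C3-/- replicate 1 are red for nearly all rows and C3-/- replicate 2 is blue, while Cox6a2 and Cox8b follow the 5 tumors with high Acta1.

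Most members have a short coding sequence, and deviations went with transcript length in the same tumors. Of the 80 members, 60 have a coding sequence under 600 bases and 12 one of 900 bases or more. Over 13986 protein-coding genes, the Spearman rho between canonical transcript length and deviation was -0.49 in WT replicate 3, -0.54 in C3-/- replicate 1 and 0.34 in C3-/- replicate 2, and among the 80 members it was -0.08, -0.35 and 0.34. In the shortest class, transcripts of up to 750 bases, the 28 members had medians of 0.45, 0.58 and -0.44 in these 3 tumors and the 205 other protein-coding genes 0.50, 0.48 and -0.30. In that class the members lay close to other short genes in the tumors that were high.

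Above 1500 bases of canonical transcript the members lay farther from 0 than other genes of like transcript length. These classes mix members of short and long coding sequence. Ndufb2 (4389 bases, 315 of them coding) and Ndufs6 (3593 bases, 348 coding) stand beside Ndufa10 (7389 bases, 1065 coding) and Ndufs1 (3613 bases, 2181 coding). At 2000 to 3000 bases, the 11 members had medians of 0.40, 0.35 and -0.32 in WT replicate 3, C3-/- replicate 1 and C3-/- replicate 2, and the 2826 other genes 0.12, 0.13 and -0.06. At 3000 to 4000 bases, the 5 members lay closer to 0, with 0.18, 0.15 and -0.15 against 0.00, 0.01 and -0.01 for 2504 other genes. Above 4000 bases there were 5 members as well, with 0.58, 0.41 and -0.32 against -0.18, -0.19 and 0.10 for 5673 other genes. By coding length, the 12 members of 900 bases or more, among them Atp5a1, Atp5b, Ndufs1 and Sdha, had medians of 0.39, 0.34 and -0.29. The 10254 other protein-coding genes of that coding length had -0.08, -0.06 and 0.04. The 60 members under 600 bases had 0.48, 0.54 and -0.42, against 0.35, 0.30 and -0.21 for 1671 other genes. The part of transcript length in the tumor-to-tumor variation was not tested.

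**Figure D3:**
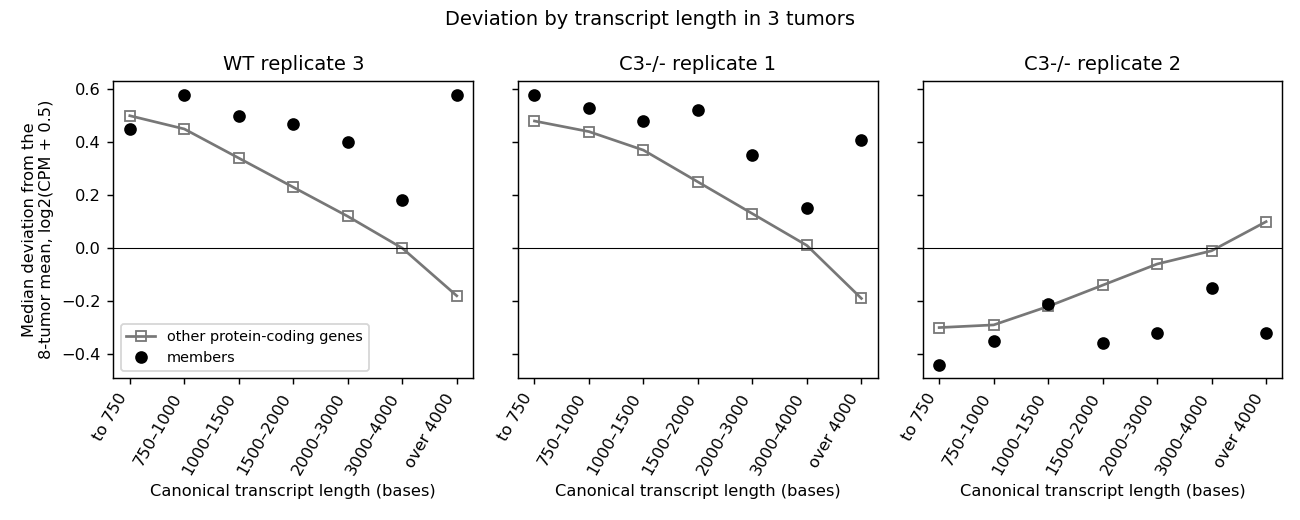
Median deviation from the 8-tumor mean, log2(CPM + 0.5), by class of canonical transcript length (bases), for members (filled circles, 5 to 28 genes a class) and all other protein-coding genes (open squares), in the 3 tumors where members deviated most. In transcripts of up to 750 bases members lie at 0.45, 0.58 and -0.44 and other genes at 0.50, 0.48 and -0.30, and above 1500 bases the members lie farther from 0 than the other genes in all 3 tumors.

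The 13 subunits encoded in mitochondrial DNA did not share the pattern. Their list, of which 12 genes were tested, had medians of 0.13, -0.42, 0.02 and 0.28 in WT replicates 1 to 4 and -0.52, 0.20, 0.18 and 0.20 in C3-/- replicates 1 to 4. The list's median was thus lowest in C3-/- replicate 1, where that of the nuclear members was highest, and near the middle in WT replicate 3. The genes differed among themselves, since 6 of the 12 had their lowest level in C3-/- replicate 1, whereas mt-Nd3, a complex I subunit, had its highest there (26.6 CPM, against 11.6 to 23.3 in the others). Their counts summed to 11443 to 19784 CPM per tumor, above the 5851 to 10040 CPM of the 80 nuclear members together. Gene mt-Co1, the catalytic core of complex IV, had 8416, 7437, 6913 and 9146 CPM in WT tumors and 5687, 10166, 10211 and 9103 CPM in C3-/- tumors. Copies of mitochondrial sequence in the nucleus and the poly-A selection may affect these counts and were not examined.

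Subunits that the naming rule missed went with the members. Cox4i1, Cox4i2, Ndufab1, Cyc1 and Cycs had medians of 0.53 in WT replicate 3 and 0.45 in C3-/- replicate 1, and for all 5 these were the 2 highest tumors. The 42 assembly factors in the table, proteins that build the complexes without staying in them, had medians of 0.13 and 0.27 there, and 17 citric acid cycle and pyruvate dehydrogenase genes 0.09 and 0.10. The 13 tested regulators of mitochondrial biogenesis, such as Ppargc1b, Nrf1 and Tfam, had medians of -0.21 and -0.05. Some markers of other cell types were also high in these 2 tumors. They were the 2 highest for all 5 erythroid genes, for 3 of 6 tumor epithelial genes and for 1 of 10 acinar genes tested. The 5 erythroid genes, which include the globins, had medians of 2.25 and 1.48 there (summed level 2096 and 1124 CPM, against 156.1 to 625.1 CPM elsewhere), and the tumor epithelial list had 0.48 and 0.36. Acinar genes of the exocrine pancreas summed to 2010 CPM in C3-/- replicate 1, 378.6 CPM in WT replicate 3 and 40.1 to 565.9 CPM elsewhere. The part of these in the members' variation was not tested.

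**Figure D4:**
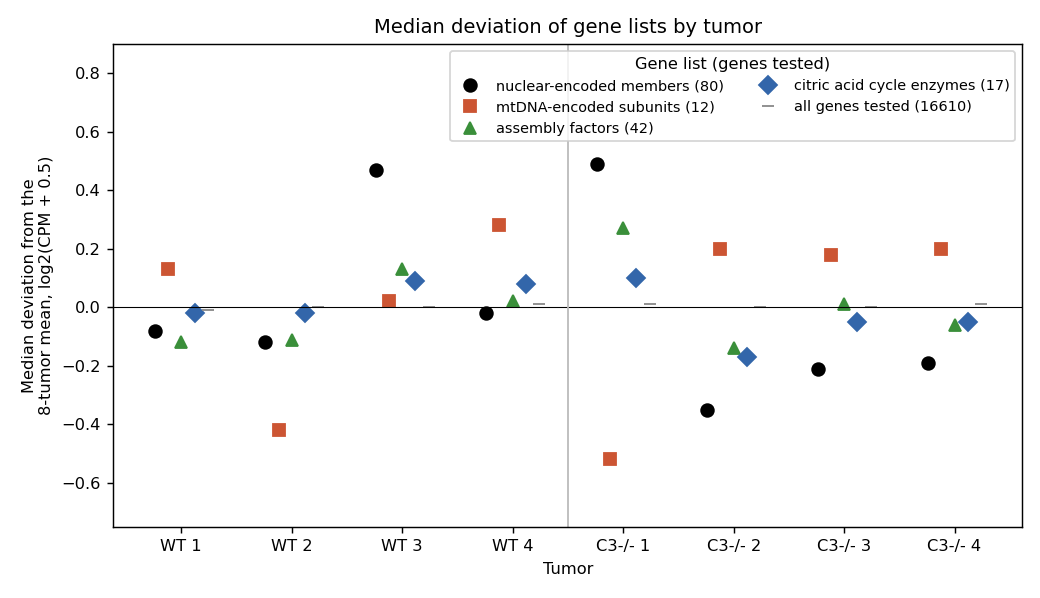
Median deviation from the 8-tumor mean, log2(CPM + 0.5), of the nuclear-encoded members, the subunits encoded in mitochondrial DNA, assembly factors, citric acid cycle enzymes and all genes tested, for each tumor (points are medians over the genes tested, whose number is in the legend). The members reach 0.47 and 0.49 in WT replicate 3 and C3-/- replicate 1, where the mitochondrially encoded list lies at 0.02 and -0.52 and the citric acid cycle list at 0.09 and 0.10.

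The comparison the study was designed for, C3-/- against WT hosts, showed no called member. In edgeR's quasi-likelihood test, 0 of 80 members had an adjusted p below 0.05, as for all 16610 genes (0%). At an unadjusted p below 0.05 there were 0 members, against 5.11% of all genes. DESeq2 called 0 members at an adjusted p below 0.05 and 16 genes of all 29900 with a p (0.0535%). For 0 members did all 4 C3-/- tumors lie on a single side of the 4 WT tumors, which held for 2.28% of all genes in the higher and 1.45% in the lower direction.

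Values were nevertheless mostly a little lower in C3-/- tumors. The log2 difference was below 0 for 68 of the 80 members and above 0 for 12, with a median of -0.11 against 0.00 for all genes, and the medians by complex ran from -0.13 (complex IV) to -0.10 (complex II). Since members vary together, these 80 values are not separate pieces of evidence. Between tumors of a genotype, the members' median deviation had an SD of 0.33. The sign rested on single tumors. Without WT replicate 3 the median was 0.04, with 52 members above 0, and without C3-/- replicate 2 it was -0.02.

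Without C3-/- replicate 1, the tumor where members were highest, the median was -0.34 and 76 members lay below 0. That tumor is singled out for the members' high values, so leaving it out lowers their difference by construction. Members also vary together, so the counts that follow are not separate pieces of evidence. Without it, 27 of the 80 (33.8%) had an unadjusted p below 0.05 in edgeR, all of them lower in C3-/- tumors. Of all genes 5.57% did so, and the lowest adjusted p of a member was 0.366. Leaving out both high tumors, an alternative chosen after seeing the data, gave a median of -0.20 and 23 such members (28.8%, against 5.56% of all genes), with a lowest adjusted p of 0.33. Within the 5 tumors with high Acta1, also chosen afterwards, the median turned to 0.12, with 63 members above 0.

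Single members show the spread behind these values. Ndufa4l2 had the lowest log2 difference of all members, -0.41 (SE 0.37), with 14.7 ± 6.21 CPM in WT and 11 ± 5.16 CPM in C3-/- tumors (SD, n = 4 each). Ndufa12 had the highest, 0.49 (SE 0.44), with 18.1 ± 5.41 CPM in WT and 25.5 ± 20.3 CPM in C3-/- tumors (SD, n = 4 each). It rested on the 55.7 CPM of C3-/- replicate 1, without which the difference was -0.23. Cox6b2 was highest in complex IV (0.34, SE 0.43), and 0.08 without that tumor. Ndufv3 was lowest in complex I at -0.34 (SE 0.26), with 46.6 ± 12 CPM in WT and 36.8 ± 14.2 CPM in C3-/- tumors (SD, n = 4 each).

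In complex II, Sdhb, the iron-sulfur subunit, had the lowest difference (-0.13, SE 0.20) and Sdhc the highest (-0.06, SE 0.11). In complex III these were Uqcrfs1, the Rieske iron-sulfur protein (-0.18, SE 0.15), and Uqcr11 (0.00, SE 0.31). In complex V they were Atp5md, a small accessory subunit (-0.22, SE 0.23), and Atp5d, the delta subunit (0.01, SE 0.29). All of these had an adjusted p of 0.999 in edgeR. Cox6a2 and Cox8b had the largest SE of the 80 members. Cox6a2 had 8.76 ± 11.9 CPM in WT and 8.81 ± 7.35 CPM in C3-/- tumors (SD, n = 4 each), so that its log2 difference was -0.01 (SE 1.38), and Cox8b had 0.11 (SE 1.23), whereas Cox7a1 had -0.02 (SE 0.39).

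Of the widely expressed forms, Cox6a1 had 165.3 ± 30.5 CPM in WT and 156.9 ± 76.8 CPM in C3-/- tumors (SD, n = 4 each), and the difference was -0.07 (SE 0.28). The others lay between -0.19 and -0.06, with Ndufa4 at -0.19 (SE 0.23), Cox7a2 at -0.18 (SE 0.28), Cox6b1 at -0.17 (SE 0.25), Cox8a at -0.09 (SE 0.20), Cox7a2l, a subunit that links complexes III and IV, at -0.09 (SE 0.24), and Cox7b at -0.06 (SE 0.20). Each of these differences was smaller than its SE. The leaders per length were likewise close to 0, with Atp5b at -0.17 (SE 0.17), Ndufa6 at -0.09 (SE 0.20), Sdhd at -0.10 (SE 0.14) and Uqcr10 at -0.17 (SE 0.27).

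**Figure D5:**
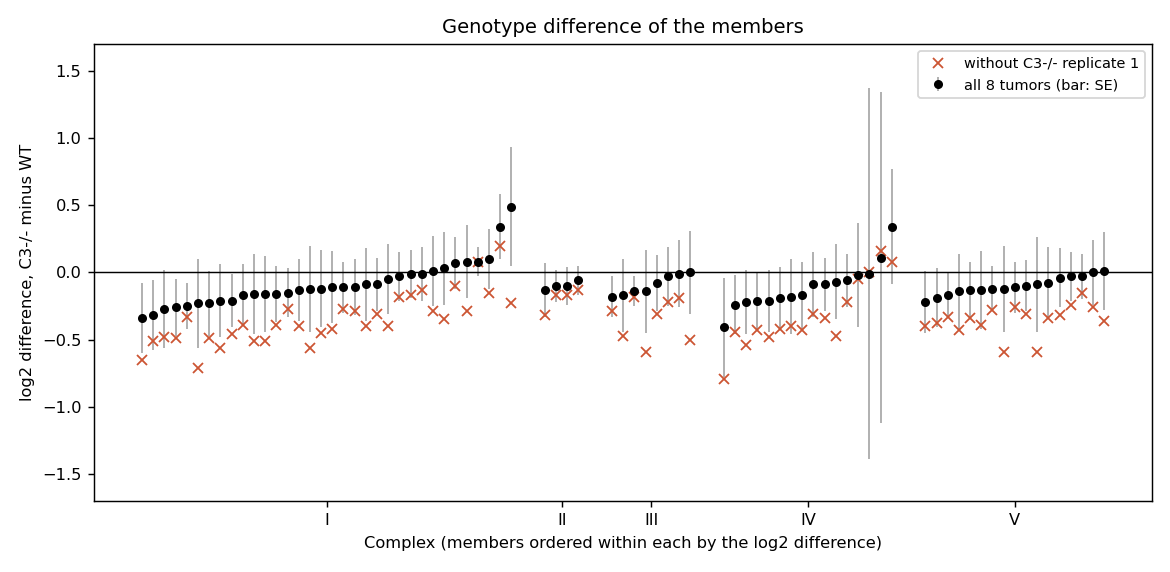
log2 difference (C3-/- minus WT) of 79 of the 80 members from edgeR, ordered within complexes I to V, for all 8 tumors (black circles, bars show the SE) and without C3-/- replicate 1 (crosses). Most circles lie below 0, with a median of -0.11, and most crosses lie lower, with a median of -0.34; the long bars in complex IV belong to Cox6a2 and Cox8b.

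The related lists gave 0 calls between genotypes. For the 12 tested subunits encoded in mitochondrial DNA the median log2 difference was 0.06, with 7 genes above 0, and mt-Nd1, a complex I core subunit, had the smallest p (-0.27, SE 0.16, p 0.121). The 5 further subunits had a median of -0.12 (Cycs, cytochrome c, -0.24, SE 0.20), the 17 citric acid cycle genes one of -0.07 (Dlat, -0.21, SE 0.10), and the 42 assembly factors one of 0.03 (Timmdc1, 0.50, SE 0.20, p 0.0332, adjusted p 0.971 in edgeR). Among 13 biogenesis regulators, with a median of -0.01, Pprc1, a relative of the coactivator PGC-1, had the smallest p (0.47, SE 0.13, p 0.00404, adjusted p 0.933 in edgeR). Between the Acta1 classes these 5 lists had 0 calls too. Their medians there were 0.09, 0.04, 0.01, 0.07 and 0.01, and the smallest p belonged to mt-Nd2 (0.44, SE 0.23), Ndufab1 (0.09, SE 0.20), Ogdh (0.22, SE 0.13), Sdhaf3 (0.41, SE 0.27) and Esrrg, a nuclear receptor gene. Esrrg had 0 counts in each tumor with low Acta1 and 1 to 27 in the others, and it passed the filter in this comparison only, through the group where it was high, so its difference is not given as a result.

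Markers of other tissues that use the muscle forms were mixed. Ucp1, the defining gene of brown fat, where Cox7a1 and Cox8b are also made, had 0 to 4 counts per tumor, and Myh6 of heart muscle 0 to 2. Some other genes were well counted, with 104 to 273 counts for Cidea, 153 to 417 for Prdm16 and 36 to 122 for Ppargc1a of the brown adipocyte list. Of the heart list, Tnni3 had 35 to 113 counts and Tnnt2 322 to 708. The others were low, with 1 to 29 counts for Dio2 and 0 to 3 for Elovl3 of the brown adipocyte list. Myl7 and Ryr2 of the heart list had 0 to 6 and 1 to 8. Of the brown adipocyte list 4 genes of 6 were tested, with medians of -0.08 between genotypes and -0.05 between Acta1 classes, and of the heart list 2 of 6, with -0.10 and 0.07. The lists of white adipocyte, acinar, tumor epithelial and erythroid genes had medians of -1.19, 0.80, -0.18 and -0.44 between genotypes and -1.46, 2.03, -0.23 and -0.73 between Acta1 classes, and the skeletal muscle list had 0.29 between genotypes and, without Acta1, 8.55 between Acta1 classes. Apart from the skeletal muscle genes in the Acta1 split, 0 genes of these lists were called in either comparison. The smallest p belonged to Cidea, Tnnt2, Fabp4, Prss2, Sox9, Hba-a2 and Casq1 between genotypes (p 0.0663 to 0.643), and to Dio2, Tnni3, Plin1, Cela2a, Epcam and Hbb-bs between the Acta1 classes (p 0.00927 to 0.8). Among the acinar genes, 10 were tested, and without C3-/- replicate 1 their median between genotypes was -5.29. The white adipocyte genes were high in a single tumor, with a summed level of 550 CPM in WT replicate 2 and 53.7 to 139.7 CPM in the others.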

How the data were processed

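Tumor RNA of 4 WT and 4 C3-/- hosts was analysed. Libraries were poly-A selected and paired-end. The authors' text names STAR, HTSeq and DESeq2, whereas the submitters' processing notes name HISAT2 2.0.5 and DESeq2 1.20.0; both give mm39, and the strand setting of the counting is not given in the sources used here. The authors deposited raw counts per gene, which alone entered the tests. The table also holds the authors' normalized signal (counts divided by a size factor), deposited FPKM values, and the authors' log2 fold changes and p-values for C3-/- against WT, none of which was used.

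The members, gene lists and comparisons were chosen with earlier results of these data known. Of 82 protein-coding symbols that matched the naming pattern, 2 were left out by the rule (1 named as a pseudogene, and a gene not reported here). The tests used edgeR 4.0.16 in R 4.3.3 (genes kept by filterByExpr at min.count 10, TMM scaling, quasi-likelihood F-test, Benjamini-Hochberg adjustment over all genes), in separate fits for genotype and for Acta1 class, which share all tumors. DESeq2 1.42.0, other scalings and filters, covariates and each tumor left out were alternatives. Deviations used log2(CPM + 0.5). Transcript lengths and starts were those of GENCODE vM39 canonical transcripts (GRCm39), found for 80 of 80 members. Shares have 95% Wilson and ratios 95% exact counting intervals.

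Genes named are the members called in either comparison, the complex IV tissue forms and their partners, the members with the highest and lowest difference and the highest level per length in each complex, and in each list the genes called or that with the smallest p. Others are named as exceptions or as chosen afterwards. The scripts were tested on simulated data. Every pair of tumors differed by a chi-square per gene of at least 15.2, so no library was a repeat. Nothing says that tumors were pooled, and p-values measure the spread between these tumors. Models of 35 members overlap another gene, so their counts are uncertain without strand. The pseudogene Cox5b-ps had 101 to 272 counts and may share reads with Cox5b.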

Additional observations from a re-analysis of the deposited data

Results flagged for a closer look

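Within groups of 4 tumors of a genotype or the 5 tumors with high Acta1, a tumor stood far from the others in 15 of 93 groups examined, where about 4.65 would by chance. Values are log2(CPM + 0.5) for single genes, and the groups overlap, so the 15 are not separate. WT replicate 3 stood high among WT tumors for Atp5d (7.43 against 6.69 to 6.81 in the others) and Cox7a2l (8.21 against 7.33 to 7.44), and WT replicate 1 stood low for Cox6b2 (0.32 against 1.06 to 1.17, at 12 counts).

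C3-/- replicate 1 stood apart in the other 12 groups. Among C3-/- tumors it was high for Cox7a2l (8.05 against 7.24 to 7.37), Ndufv3 (5.87 against 4.85 to 5), Sdhd (7.26 against 6.95 to 7) and Uqcr11 (6.52 against 4.97 to 5.23). Among tumors with high Acta1 it was high for Atp5d (7.72 against 6.69 to 6.79), Cox7a2l (8.05 against 7.24 to 7.44), Ndufa12 (5.81 against 3.78 to 4.33), Ndufa6 (6.85 against 6.05 to 6.28) and Uqcrh (6.96 against 6.24 to 6.42). The median deviation of the members there was 0.49 against -0.21 to -0.02. The median of the subunits encoded in mitochondrial DNA was -0.52, against 0.18 to 0.20 in the other C3-/- tumors and 0.13 to 0.28 in the other tumors with high Acta1.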

How the results depend on the processing

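The number of members called stayed at 0 between genotypes and at 2 between Acta1 classes in every alternative run. Over all genes, DESeq2 called 16 between genotypes, and fits that each left out 1 tumor called from 0 to 4, the 4 without C3-/- replicate 1. The Acta1 split gave 143 to 301 genes, against 206. With 1 tumor left out, the members' median between genotypes lay between -0.34 and 0.04, and that between Acta1 classes between -0.18 and 0.27, so neither sign is firm. With the replicate block, 0 members and 0 genes were called between genotypes and the members' median was -0.14. Deviations of tumors that share a number correlated at -0.03, 0.49, -0.36 and 0.59, which cannot settle whether the numbers pair the tumors. Removing a trend on transcript length, chosen after seeing the data, gave medians of -0.09 and 0.02 and the same counts of members called. Of the 28 members named by rule, 22 changed sign in at least 1 of 17 alternatives between genotypes, and 22 in at least 1 of 15 between Acta1 classes; Cox6a2 and Cox8b kept theirs in the latter. The causes were not tested. With counts of 0 or 1 in the tumors with low Acta1, depth limits how large the ratios of Cox6a2 and Cox8b can be shown to be.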

Other observations

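Other families of housekeeping genes varied with the members; they were chosen after seeing the data and are given as values. The 77 genes of cytosolic ribosomal proteins had median deviations of 0.56 in WT replicate 3 and 0.60 in C3-/- replicate 1, and for 93.5% of them these were the 2 highest tumors. Near-identical copies of ribosomal protein genes can share their reads. The 77 genes of mitochondrial ribosomal proteins had medians of 0.43 and 0.37 (80.5%), and the 37 genes of proteasome subunits 0.48 and 0.35 (75.7%). In C3-/- replicate 2 the 3 families had medians of -0.34, -0.29 and -0.35, next to -0.35 for the respiratory chain members. Across 13986 protein-coding genes, the Spearman rho of deviation with GC content was 0.39 in C3-/- replicate 1 and 0.07 in WT replicate 3, so the 2 tumors in which the members were high differed in base composition. Among the 80 members it was 0.42 and -0.06.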
